A study of Homo sapiens with 9 samples.

Results

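Very long protein-coding genes were examined in A375R cells, a human melanoma line resistant to the BRAF inhibitor PLX4032. Per the study's methods, this line was cultured with PLX4032 in the medium, which the sample titles do not name. A gene was taken when it was annotated as protein-coding, when the first and last base of its annotated position lay at least 500000 bases apart, and when its mean normalized read count over the 9 libraries was at least 10. This gave 229 genes, out of 12499 protein-coding genes and 15230 genes of all types that passed the same mean, and out of 62710 rows of the deposited table. A further 94 protein-coding genes of this span did not reach the mean, of which 3 were at 0 in every library.

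Treatment lasted 2 h with DMSO, with VHL-r at 10 µM or with R4VPL3-1 at 10 µM, in 3 biological repeats each. VHL-r is the moiety that binds the ubiquitin ligase VHL, and R4VPL3-1 is the complete degrader-like molecule in which this moiety is joined to a ligand of the ubiquitin ligase RNF4. The DMSO libraries are labelled WT with no dose, and all 9 libraries come from 1 cell line, for which the labels name no engineered allele. Poly(A) RNA was sequenced, so the values are read counts over exons, and the position of the reads inside a gene cannot be read from them.

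Libraries held between 26435568 and 32085626 reads assigned to genes. Replicates of each group differed by more than counting noise, with a chi-square per gene between 3.55 and 7.84. Of the melanocyte lineage markers, SOX10 (mean normalized read count 12050), MITF (1260), DCT (1277), S100B (683) and PAX3 (576) were present, while MLANA was at 0 in every library and TYR had a mean of 0.354. Of the markers of undifferentiated melanoma, AXL had a mean of 10164, NGFR of 988, EGFR of 520 and SOX9 of 15.2. The fibroblast genes COL1A1 (1065), COL1A2 (705) and PDGFRB (199) and the keratinocyte gene KRT14 (295) were also read, while KRT5 had 17.4 and KRT1 0.111. The immune markers PTPRC and CD3E were between 0 and 11.8 in every library.

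RNA polymerase II copies a gene from end to end before the transcript is released, and splicing removes the introns while copying goes on. In very long genes nearly all of that distance is intron, so slowed elongation or a block of topoisomerase I is known to lower their new RNA more than that of short genes. Many of the longest human genes encode adhesion, synapse and cytoskeletal proteins and are used most in neurons. In a 2 h treatment the mature mRNA also reflects what was made before the treatment began and how fast it decays.

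The 229 genes had a median span of 715531 bases, from 501412 for SPOCK3 to 2304996 for CNTNAP2, against a median of 35312 bases for the other tested protein-coding genes. In GENCODE 44 their longest intron had a median of 190073 bases, against 9499 for the others, and their canonical mRNA a median of 7177 bases, against 3424. A span of 500000 bases copied within the 120 min of treatment would need 4.17 kb per min, and the median canonical transcript of these genes, 591 kb, would need 4.93 kb per min. The annotated span is the outer edge of all isoforms, and it overstates the distance copied for some genes. The canonical transcript spanned at least 500 kb in 177 genes, less than 300 kb in 16 and less than 100 kb in 5, and 131 genes had at least 1 annotated coding transcript shorter than 100 kb.

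These genes were expressed at low levels. Their mean normalized read count had a median of 252, against 900 for the other protein-coding genes, and per kilobase of exon the medians were 21.7 and 155. A mean under 100 was found in 33.6% of them and in 16.5% of the others. Together they held between 0.453% and 0.488% of the normalized reads of a library. The genes next to the span limit were SPOCK3, DNAH14 (503030 bases) and PPP2R2B (504042) on the inside and DIAPH3 (498345), ITPR2 (497842) and CACNA2D1 (497512) on the outside.

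The long genes as a group stayed near the level of the other genes. On the log2 scale, the median change of the 229 genes was 0.02 with VHL-r against DMSO, while the 12270 other protein-coding genes had a median of -0.0045. With R4VPL3-1 against DMSO the medians were -0.0027 and -0.0090, and with R4VPL3-1 against VHL-r they were -0.02 and -0.0089. These medians are descriptions without a test. When each library was set against the mean of the DMSO libraries, the long genes lay above the other genes by 0.050, below them by 0.013 and above them by 0.047 in the 3 VHL-r libraries, below by 0.0041 and 0.027 and above by 0.074 in the 3 R4VPL3-1 libraries, and between -0.033 and 0.035 in the DMSO libraries. The treated libraries thus lay on both sides of 0 for each compound. Leaving out single libraries moved the group median between -0.0036, without DMSO replicate 2, and 0.0581, without DMSO replicate 3, for VHL-r. For R4VPL3-1 it ran from -0.0227, without R4VPL3-1 replicate 3, to 0.0247, without R4VPL3-1 replicate 2, and it turned to 0.0064 after TMM scaling and to 0.0144 after upper quartile scaling.

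Most of the individual changes were small. With VHL-r 81.7% of the long genes, and 81.5% of the other protein-coding genes, stayed within 0.3 of their DMSO level on the log2 scale, and with R4VPL3-1 the shares were 79.9% and 78.9%. These shares were not matched for read count. At a mean from 10 to 100, the median absolute change with VHL-r was 0.208 for long genes and 0.281 for others. From 100 to 500 it was 0.103 and 0.145, and from 500 to 2000 it was 0.074 and 0.094. At 2000 or more it was 0.071 and 0.058. With R4VPL3-1 it was smaller for long genes in every class. These differences were not tested. A 2-fold shift in either direction lay outside the 95% interval for 212 of the 229 genes with VHL-r and for 210 with R4VPL3-1. Fewer reads of a gene in bulk RNA can come from fewer cells that express it or from less RNA per cell, and these cannot be told apart here.

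**Figure D1:**
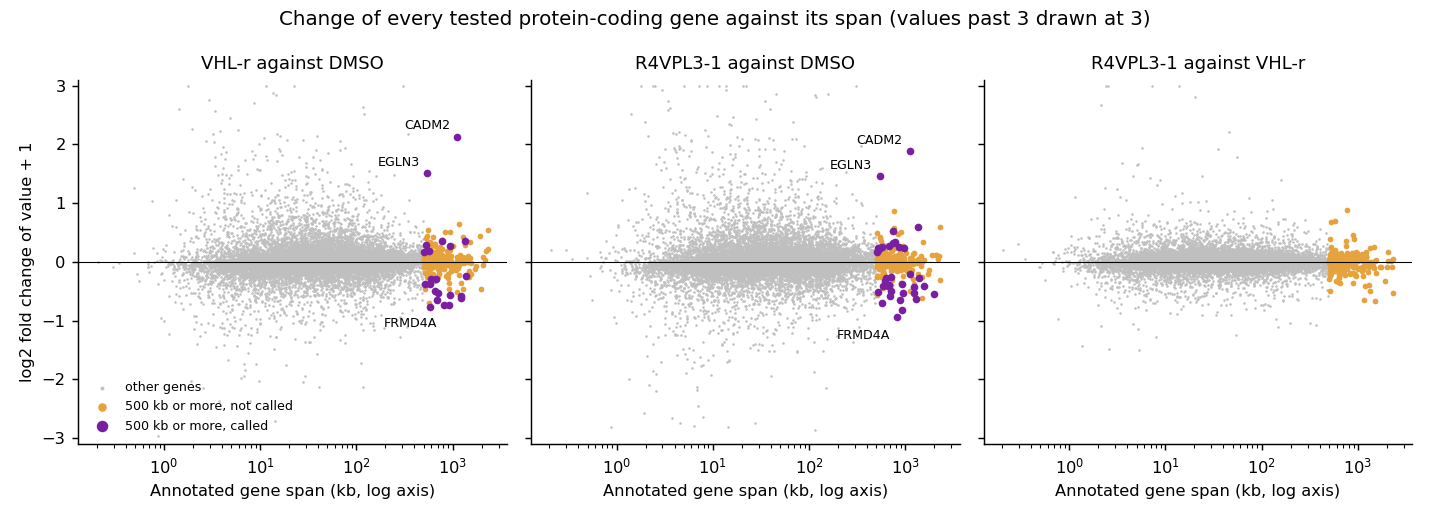
Log2 fold change (of normalized read count plus 1) of each tested protein-coding gene against its annotated span in kb on a log axis, in the 3 comparisons; grey points are genes under 500 kb, orange points the long genes that were not called and purple points those called by limma, with values past 3 drawn at 3. The long genes scatter around 0 in all 3 panels, and CADM2 and EGLN3 stand above the rest with both compounds.

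With VHL-r against DMSO, limma called 22 of the long genes, 8 higher and 14 lower, where a call means an adjusted p (Benjamini-Hochberg, over all tested genes) no larger than 0.05. This is 9.61% of them, while the same rule called 19.8% of all 15230 tested genes and 20.8% of the other protein-coding genes. Higher calls made up 3.49% of the long genes, against 10.3% of all tested genes and 10.7% of the other protein-coding genes, and lower calls 6.11%, against 9.51% and 10.1%. With R4VPL3-1 against DMSO, 36 were called, 14 higher and 22 lower. This is 15.7%, against 24.9% of all tested genes and 25.7% of the other protein-coding genes. Higher calls made up 6.11% of the long genes, against 13.1% and 13.0%, and lower calls 9.61%, against 11.8% and 12.7%. The count of higher calls rested in part on single libraries. It was 4 without DMSO replicate 2 and 5 without VHL-r replicate 1 for VHL-r, and 5 without DMSO replicate 2 and 8 without R4VPL3-1 replicate 1 for R4VPL3-1. The count of lower calls with R4VPL3-1 was 14 without DMSO replicate 2. The comparisons with DMSO share the same 3 control libraries.

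The share of called genes was lowest in the classes of 250 kb and above. With VHL-r, 25% of the genes under 10 kb were called, between 19.3% and 21.6% in the 4 classes from 10 to 250 kb, 11.2% of those of 250 to 500 kb, 9.60% of those of 500 kb to 1 Mb and 9.62% of those of 1 Mb or more. With R4VPL3-1 the shares were 29.8%, between 23.7% and 27.2%, 15.8%, 15.3% and 17.3%. Among the 52 genes of 1 Mb or more, R4VPL3-1 gave 2 higher and 7 lower calls and VHL-r 2 and 3. With R4VPL3-1 these were 3.85% and 13.5% of the class, beside 13.1% and 11.8% of all tested genes. With VHL-r they were 3.85% and 5.77%, beside 10.3% and 9.51%. The rank correlation of span with the log2 fold change across 12499 protein-coding genes, which share the same libraries, was 0.080 for VHL-r, 0.069 for R4VPL3-1 and 0.012 between the compounds.

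**Figure D2:**
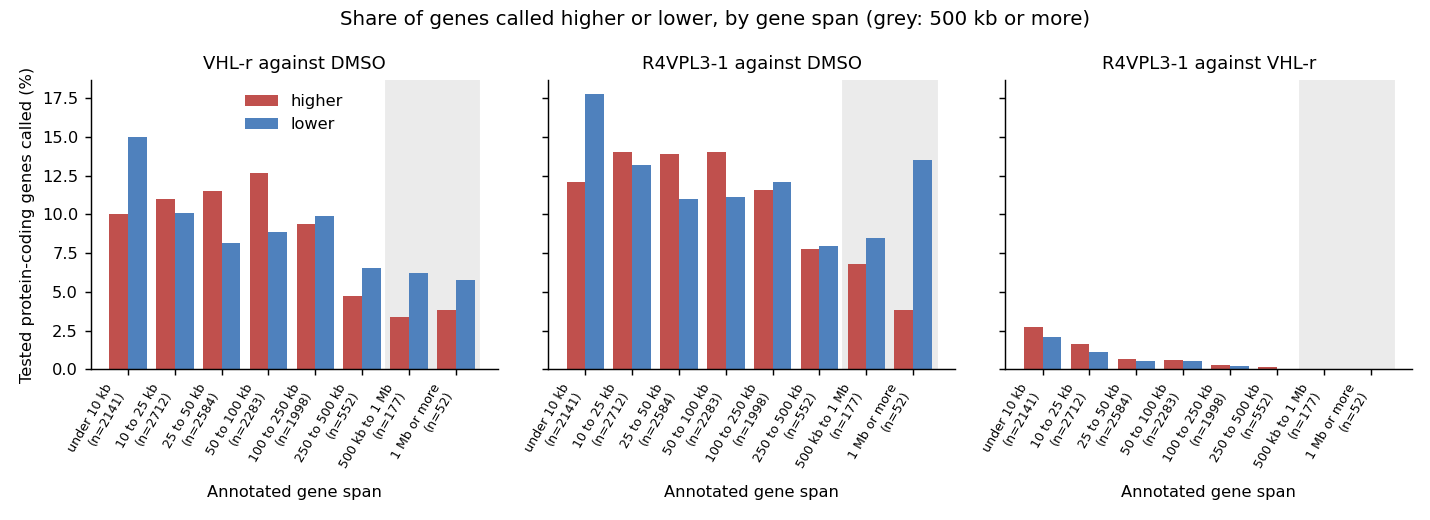
Percentage of tested protein-coding genes called higher (red) or lower (blue) by limma, by class of annotated span, in the 3 comparisons; the number of genes stands under each class and grey marks spans of 500 kb or more. The bars for 250 kb and above are lower than those of every shorter class, except for the 13.5% called lower at 1 Mb or more with R4VPL3-1.

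Read count moved with this difference. The median standard error of the log2 fold change was 0.11 for the long genes and 0.07 for the others. Among genes with a mean from 10 to 100, VHL-r gave calls for 3.90% of 77 long genes and 14.1% of 2020 others. From 100 to 500 the shares were 10.7% and 22.7%, from 500 to 2000 they were 11.3% and 24.4%, and at 2000 or more they were 26.7% of 15 long genes and 18.9% of 3472 others. R4VPL3-1 showed 6.49% and 17.6% in the lowest class and 26.7% and 25.7% in the highest. The lower share of calls thus remained within the 3 lower classes of read count and not in the highest, which holds 4 called genes with each compound. Differences between the classes were not tested.

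**Figure D3:**
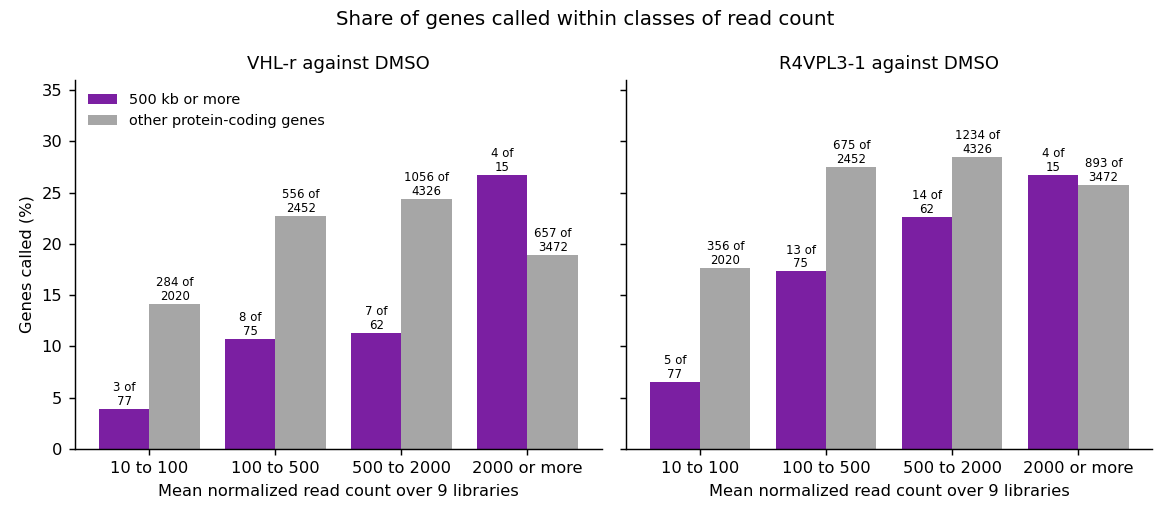
Percentage of genes called by limma within 4 classes of mean normalized read count, for the long genes (purple) and the other protein-coding genes (grey), with VHL-r (left) and R4VPL3-1 (right) against DMSO; the numbers over the bars are called genes of all genes in the class. Purple bars are shorter than grey ones below a mean of 2000.

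Few long genes changed by 2-fold or more. Of the 229, 2 were called at least 2-fold higher with each compound, CADM2 and EGLN3, and 0 were called at least 2-fold lower. Both genes have a mean between 10 and 100, and these counts are too small to give a direction. CADM2 passed the mean minimum only through its treated libraries, as given below. For all tested genes the share called at least 2-fold higher was 1.93% with VHL-r and 2.60% with R4VPL3-1, and the share called at least 2-fold lower was 0.946% and 1.28%.

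CADM2, an immunoglobulin-type cell adhesion protein, lies at chr3:84958989-86074429 (GRCh38, plus strand). Its normalized read counts were 7.26, 4.92 and 13.18 in the DMSO libraries, 45.03, 32.56 and 36.87 with VHL-r and 35.48, 36.81 and 24.62 with R4VPL3-1. Every treated library lay above every DMSO library. Its DMSO mean of 8.45 was under the minimum of 10. Only the means with VHL-r (38.2) and R4VPL3-1 (32.3) brought it into the set. A gene that fell from this DMSO level could not have entered, so the rule favoured a rise here. The rise was 2.13 ± 0.31 (SE, n = 3) on the log2 scale with VHL-r (limma adjusted p = 3.72e-05) and 1.89 ± 0.31 with R4VPL3-1 (limma adjusted p = 0.000108). Its canonical transcript covers the full 1115440 bases, with 10 exons and a longest intron of 766853 bases, and would need 9.30 kb per min to be copied in 120 min. Its shortest annotated coding transcript spans 340301 bases and would need 2.84 kb per min.

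EGLN3, the prolyl hydroxylase PHD3 that marks HIF alpha subunits for VHL, rose from 7.26, 13.77 and 14.2 in DMSO to 39.03, 33.61 and 29.7 with VHL-r and to 31.75, 35.82 and 31.05 with R4VPL3-1. The treated and DMSO libraries did not overlap. The log2 fold changes were 1.51 ± 0.28 (SE, n = 3; limma adjusted p = 0.000413) and 1.46 ± 0.28 (limma adjusted p = 0.000435). Its annotated position, chr14:33924227-34462774 on the minus strand, spans 538547 bases, but its canonical transcript spans 26847 bases. By that transcript EGLN3 is a short gene, and 0.224 kb per min would be enough to copy it within the treatment. Which transcripts of CADM2 and EGLN3 were read, and how their rises arose, was not tested.

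Sequence before the start of the canonical transcript is shown for EGLN3, HDAC9 and PDE10A, to set a raised gene beside lowered ones. The read counts do not show which start was used. HDAC9 and PDE10A were picked after their values were seen, as genes with many reads that fell with both compounds, and in all 3 a RefSeq start falls on the base where the canonical transcript begins. Each run is the 250 bases before the RefSeq start (build GRCh38.p14), 5′ to 3′ on the strand of the gene, and capitals mark GGGCGG or its reverse complement, the core letters of a GC box, where overlapping matches run together.
EGLN3 (chr14:33951075-33951324, minus strand): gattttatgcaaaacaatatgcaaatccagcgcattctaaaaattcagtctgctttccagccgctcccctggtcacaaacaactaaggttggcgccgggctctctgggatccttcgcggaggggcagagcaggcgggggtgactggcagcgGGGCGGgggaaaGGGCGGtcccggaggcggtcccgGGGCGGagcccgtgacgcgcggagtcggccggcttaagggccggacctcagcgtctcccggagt
HDAC9 (chr7:18495499-18495748, plus strand): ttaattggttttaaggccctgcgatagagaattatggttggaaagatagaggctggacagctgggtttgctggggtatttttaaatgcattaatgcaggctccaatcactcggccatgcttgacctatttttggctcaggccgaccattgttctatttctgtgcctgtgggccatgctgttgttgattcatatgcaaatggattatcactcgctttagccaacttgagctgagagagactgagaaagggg
PDE10A (chr6:165663242-165663491, minus strand): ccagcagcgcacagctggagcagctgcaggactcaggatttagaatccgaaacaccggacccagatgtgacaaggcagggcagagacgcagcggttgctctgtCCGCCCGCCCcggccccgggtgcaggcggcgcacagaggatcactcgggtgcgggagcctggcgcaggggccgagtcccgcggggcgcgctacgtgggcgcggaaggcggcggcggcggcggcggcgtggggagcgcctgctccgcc
The EGLN3 stretch held 3 matches, 64.0% G and C and 23 CpG dinucleotides. PDE10A was alike, with 2 matches, 73.6% and 31. HDAC9 held no match, 45.2% and 4. A GC box core was found in the same window of 60.8% of the 176 long genes with a RefSeq start within 1000 bases of the canonical start, in 72.4% of 9627 other tested protein-coding genes and in 42.6% of all 35114 RefSeq starts. ACGTG, 1 form of the core letters that HIF binds, was absent from the EGLN3 and HDAC9 windows. It was present once, on either strand, in that of PDE10A. It was held by 18.2% of the long genes, 23.5% of the others and 18.5% of all starts. The form GCGTG was not counted. Of the 196 long genes with a RefSeq entry, 111 had more than 1 start, up to 12, so a promoter shown here is 1 of several for HDAC9 and PDE10A.

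**Figure D4:**
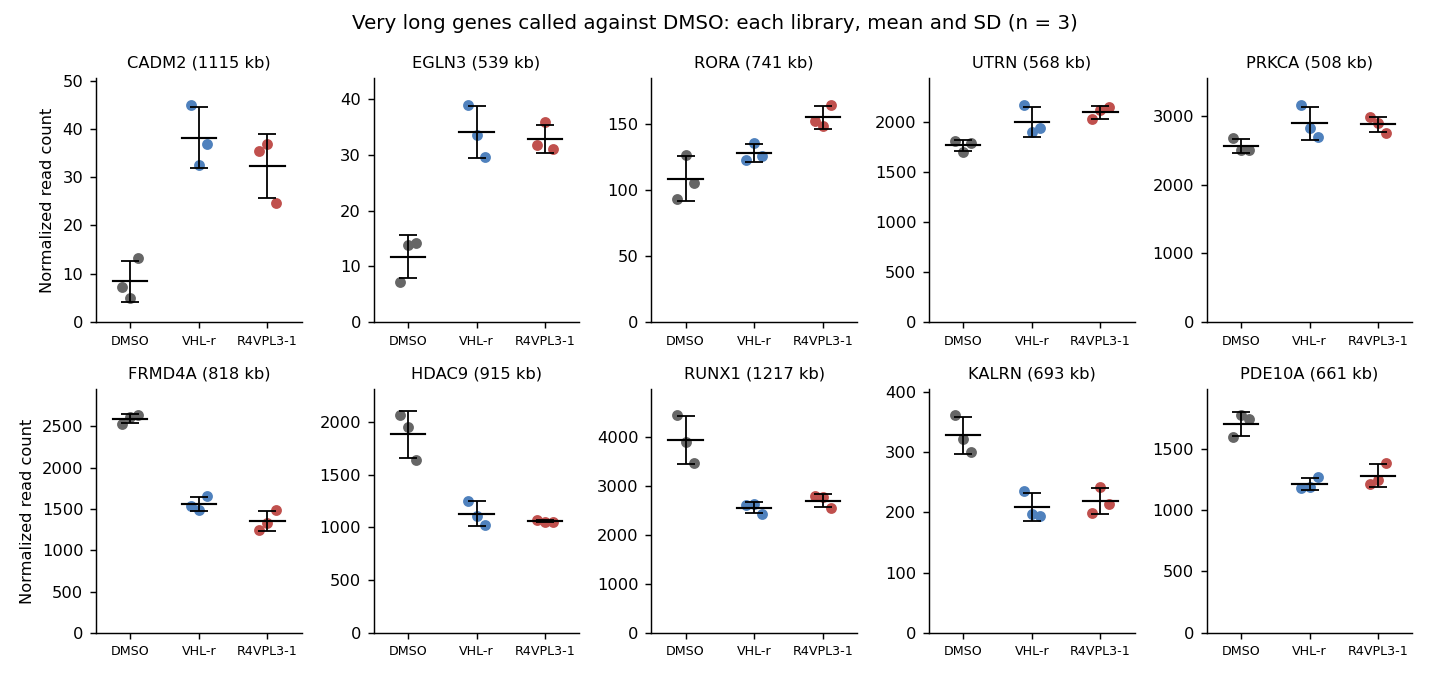
Normalized read counts of 10 long genes in each library (points), with the mean (bar) and SD (whiskers) of 3 libraries per treatment; the span is given in kb in each title and the axes start at 0. In the upper row the treated libraries lie above DMSO for CADM2 and EGLN3, and in the lower row all 6 treated libraries lie below the 3 DMSO libraries for each gene.

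The other raised genes changed by 0.17 to 0.59 on the log2 scale. UTRN, the dystrophin relative utrophin, had 1807.95, 1702.06 and 1784.75 in DMSO, 2172.55, 1898.18 and 1934.75 with VHL-r and 2025.28, 2118.14 and 2149.73 with R4VPL3-1. Neither treated group overlapped DMSO, and the rises were 0.18 (limma adjusted p = 0.0267) and 0.25 (limma adjusted p = 0.00209) on the log2 scale. PRKCA, protein kinase C alpha, rose by 0.17 with each compound (limma adjusted p = 0.0347 for both), and its single annotated coding transcript spans all 508130 bases. CHRM3, a muscarinic acetylcholine receptor, rose by 0.29 and 0.23, and NAV2, a neuron navigator that binds microtubules, by 0.36 and 0.34. PCDH9, a protocadherin, was called with VHL-r alone (0.26, limma adjusted p = 0.0204), with 0.06 and a limma adjusted p of 0.613 under R4VPL3-1. UTRN with R4VPL3-1 and CHRM3 with VHL-r stayed called when any 1 library was left out, and the other calls named here did not. With VHL-r, UTRN had a limma adjusted p of 0.162 and PRKCA of 0.21 without VHL-r replicate 1, NAV2 of 0.0966 without DMSO replicate 1, and PCDH9 of 0.0867 without VHL-r replicate 3. With R4VPL3-1, PRKCA had 0.135 without R4VPL3-1 replicate 1, CHRM3 0.109 without R4VPL3-1 replicate 3 and NAV2 0.0995 without DMSO replicate 1.

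R4VPL3-1 against DMSO gave further higher calls. RORA, an orphan nuclear receptor, went from 93.53, 126.92 and 105.46 in DMSO to 152.2, 148.24 and 164.87, a rise of 0.52 ± 0.13 (SE, n = 3; limma adjusted p = 0.00631), and had 123.09, 135.51 and 125.98 with VHL-r, a difference of 0.25 with a limma adjusted p of 0.227. The focal adhesion protein LPP (0.32), the giant cadherin FAT3 (0.26), the lipid transfer protein VPS13B (0.25), the adhesion protein NTM (0.24), the zinc finger factor GLIS3 (0.23) and the myotubularin relative SBF2 (0.22) also rose. With VHL-r the same 6 genes had values between 0.07 and 0.21 that were not called. None of the 7 genes was called between R4VPL3-1 and VHL-r, where their limma adjusted p lay between 0.287 and 0.774. Another raised row has no gene symbol, ENSG00000250349 (chrX:37349330-38687674), with 0.36 and 0.59, and its exons lie fully on exons of other genes of the same strand, so its reads are uncertain. RORA kept its call when any 1 library was left out, and the other 6 lost theirs without DMSO replicate 2, where the limma adjusted p rose to between 0.0522 (LPP) and 0.141 (FAT3). The call of ENSG00000250349 with VHL-r was lost without VHL-r replicate 1 (limma adjusted p = 0.193).

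Among the lowered genes, FRMD4A, a FERM-domain scaffold of cell polarity at chr10:13643706-14462142, changed most with R4VPL3-1. Its counts were 2528.04, 2615.07 and 2634.53 in DMSO, 1539.1, 1488.5 and 1651.04 with VHL-r and 1250.28, 1333.16 and 1483.83 with R4VPL3-1. The 3 treatments formed 3 ranges that did not overlap, in that order. It fell by 0.73 ± 0.061 (SE, n = 3; limma adjusted p = 1.82e-08) and by 0.94 ± 0.061 (limma adjusted p = 2.46e-10) on the log2 scale. Between the compounds the difference was -0.20 with a 95% interval from -0.33 to -0.08 and a limma adjusted p of 0.114, so it did not pass over all genes. Without R4VPL3-1 replicate 3 it was called, at -0.27 with a limma adjusted p of 0.0117.

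HDAC9, a class IIa histone deacetylase at chr7:18086949-19002416, stood at 2062.21, 1949.99 and 1635.68 in DMSO, at 1253.89, 1110.34 and 1019.1 with VHL-r and at 1073.8, 1049.62 and 1053.45 with R4VPL3-1. Both treated groups were below DMSO and overlapped each other. It fell by 0.74 ± 0.078 (SE, n = 3; limma adjusted p = 5.94e-07) and 0.82 ± 0.078 (limma adjusted p = 8.13e-08). RUNX1, a runt-domain transcription factor at chr21:34787801-36004667, fell from 4445.87, 3905.89 and 3465.04 to 2611.86, 2627.2 and 2429.45 with VHL-r and to 2792.82, 2773.78 and 2542.63 with R4VPL3-1, with log2 changes of -0.62 ± 0.068 and -0.54 ± 0.068. The locus spans 1216866 bases, while its canonical transcript spans 261501. NRG1, a ligand of the ERBB3 and ERBB4 receptors, likewise has a canonical transcript of 225735 bases in a locus of 1216444, and it fell by 0.59 and 0.42.

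Other lowered genes act on small GTPases or actin. KALRN, a guanine nucleotide exchange factor, had 361.41, 321.72 and 301.18 in DMSO, 236.17, 197.49 and 193.58 with VHL-r and 199.82, 242.76 and 214.12 with R4VPL3-1, and fell by 0.65 and 0.58. PHACTR1, which binds actin and protein phosphatase 1, fell by 0.77 and 0.70, DOCK3, an exchange factor for Rac, by 0.53 and 0.50, and DLC1, a GTPase-activating protein, by 0.38 and 0.50. DOCK3 has 1 annotated coding transcript, of 709271 bases. NAV3, another navigator, fell by 0.64 with R4VPL3-1, and with VHL-r it stood at -0.28 with a limma adjusted p of 0.176. IQCJ-SCHIP1 fell by 0.56 and 0.53, but 43.4% of its exon bases lie on exons of other genes of its strand. On the list of 26 GTPase regulators and cytoskeletal proteins 6 were called lower and 1 higher with VHL-r, and 8 and 1 with R4VPL3-1, with list medians of -0.03 and -0.0037. The lower calls were 23.1% and 30.8% of the list, beside 9.51% and 11.8% of all tested genes, and the higher calls 3.85% with each compound, beside 10.3% and 13.1%. The difference was not tested. One of the 8, TRPM3 (-0.37), is a calcium channel that was placed on this list, and its call was lost without DMSO replicate 3 (limma adjusted p = 0.256). DOCK3 was not called without DMSO replicate 2 (limma adjusted p = 0.118 with VHL-r and 0.138 with R4VPL3-1).

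PDE10A, a cyclic nucleotide phosphodiesterase, had 1593.65, 1773.88 and 1742.16 in DMSO, 1177.84, 1192.27 and 1272.08 with VHL-r and 1215.73, 1246.61 and 1385.33 with R4VPL3-1. It fell by 0.49 ± 0.062 (SE, n = 3; limma adjusted p = 6.51e-06) and 0.41 ± 0.062 (limma adjusted p = 3.74e-05). PDE4D, which breaks down cyclic AMP, fell by 0.40 with R4VPL3-1 (limma adjusted p = 0.00134), and with VHL-r its change was -0.21 with a limma adjusted p of 0.101. PALM2AKAP2, which anchors protein kinase A and is on no list, was among the 10 long genes with the most reads and fell by 0.29 and 0.39. The list of 21 kinases, phosphatases and second messenger enzymes, which also holds HDAC9, FGF12 and FGF13, had 2 lower and 1 higher with VHL-r and 5 lower and 1 higher with R4VPL3-1. Lower calls were thus 9.52% and 23.8% of it, beside 9.51% and 11.8% of all tested genes. Higher calls were 4.76% with each compound, beside 10.3% and 13.1%. The 5 lower calls with R4VPL3-1 include HDAC9, FGF12 and FGF13, so 23.8% is not a share of the enzymes named by the list alone. The difference was not tested. FGF12 and FGF13, which bind sodium channels inside the cell, fell by 0.28 and 0.32 with R4VPL3-1, where the FGF13 groups overlapped. Without DMSO replicate 1 their limma adjusted p was 0.12 and 0.133.

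Adhesion, polarity and matrix proteins formed the largest list, 52 genes. With VHL-r 3 were called higher and 2 lower, and with R4VPL3-1 5 and 4. In all 9.62% and 17.3% of the list were called, beside 19.8% and 24.9% of all tested genes. KIRREL3, an adhesion protein of the immunoglobulin superfamily, fell by 0.38 and 0.42, and IL1RAPL1, a synaptic relative of the interleukin-1 receptor, by 0.24 and 0.28. IL1RAPL1 has 1 annotated coding transcript, which spans 1369272 bases, and its counts were 993.42, 863.82 and 855.87 in DMSO, 715.51, 740.57 and 843.96 with VHL-r and 724.58, 683.5 and 824.35 with R4VPL3-1. All 6 treated libraries lay below DMSO, the closest by 855.87 against 843.96. EYS, a secreted protein of photoreceptors, and LINGO2, a leucine-rich repeat protein, fell by 0.55 and 0.63 with R4VPL3-1 and had -0.46 and -0.47 with VHL-r, with limma adjusted p of 0.0717 and 0.061. Of the LINGO2 exon bases, 44.4% lie on other genes of its strand. Single libraries decided these 4 genes. The limma adjusted p of KIRREL3 rose to 0.199 and 0.126 without DMSO replicate 2, and that of IL1RAPL1 to 0.223 and 0.0941 without DMSO replicate 1. With R4VPL3-1 that of EYS rose to 0.113 without R4VPL3-1 replicate 3 and that of LINGO2 to 0.0689 without R4VPL3-1 replicate 2, while LINGO2 was called with VHL-r without VHL-r replicate 2 (0.0442).

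In each of the remaining lists the share called was between 0% and 8.33% with VHL-r and between 0% and 16.7% with R4VPL3-1, beside 19.8% and 24.9% of all tested genes. With VHL-r and R4VPL3-1 there were none among 13 metabolic and mitochondrial enzymes or 9 genes of genome maintenance and cell cycle. Among 24 transcription factors and chromatin proteins RUNX1 fell with both and GLIS3 rose with R4VPL3-1. Of 15 channels and synaptic signalling genes CHRM3 rose with both and GRIK2, a kainate receptor subunit, fell by 0.21 with R4VPL3-1. Among 25 genes of ubiquitin, trafficking and membrane transport DNM3, a dynamin, fell by 0.30 with VHL-r and had -0.20 with R4VPL3-1 (limma adjusted p = 0.0843), and VPS13B and SBF2 rose with R4VPL3-1. ULK4, a pseudokinase on no list, fell by 0.26 with R4VPL3-1 (limma adjusted p = 0.0456). Among 12 receptors, a list that also holds the ligand NRG1, NRG1 fell with both and RORA rose with R4VPL3-1. Without single libraries the limma adjusted p of GRIK2 rose to 0.0942 (DMSO replicate 3), that of DNM3 to 0.0595 (VHL-r replicate 3) and that of ULK4 to 0.205 (R4VPL3-1 replicate 3).

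**Figure D5:**
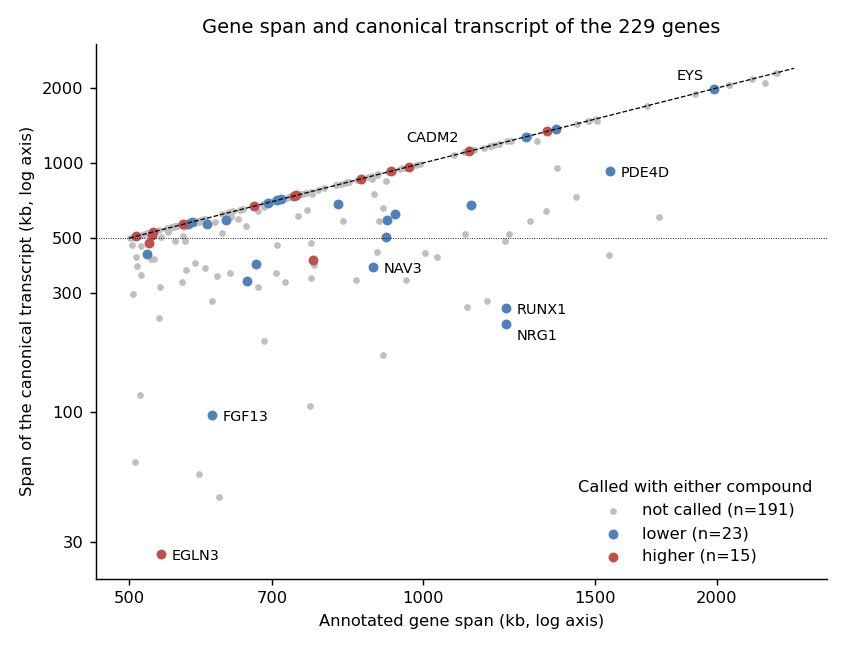
Annotated gene span against the span of the canonical GENCODE 44 transcript for the 229 long genes, in kb on log axes; red and blue mark genes called higher or lower with either compound against DMSO, grey those not called, the dashed line equality and the dotted line 500 kb. Genes below the dotted line, such as EGLN3, FGF13, NRG1 and RUNX1, have a canonical transcript shorter than their locus.

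The genes were also split by the span of the canonical transcript. Of the 177 with a canonical transcript of at least 500 kb, 6 were called higher and 9 lower with VHL-r and 11 and 15 with R4VPL3-1, 8.47% and 14.7% in all, and their medians were 0.03 and -0.0004. Of the 52 with a shorter one, 2 were higher and 5 lower with VHL-r and 3 and 7 with R4VPL3-1, 13.5% and 19.2%, and their medians were -0.02 and -0.03. Of all tested genes, 19.8% were called with VHL-r and 24.9% with R4VPL3-1. Lower calls were 5.08% and 8.47% of the longer set and 9.62% and 13.5% of the shorter, beside 9.51% and 11.8%. Higher calls were 3.39% and 6.21% of the longer set and 3.85% and 5.77% of the shorter, beside 10.3% and 13.1%. The median of the mean read counts was 237 in the longer set and 328 in the shorter. The difference between both sets was not tested. Among the called genes with VHL-r the median canonical span was 548 kb for the raised and 571 kb for the lowered, and with R4VPL3-1 it was 620 and 590 kb.

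The longest genes mostly did not pass the test. CNTNAP2, a neurexin-family adhesion protein and the longest of the 229, had 12.71, 20.66 and 16.22 in DMSO, 27.02, 24.16 and 21.51 with VHL-r and 27.08, 21.89 and 26.76 with R4VPL3-1. All treated libraries lay above DMSO, but the limma adjusted p values were 0.177 and 0.112 for log2 changes of 0.54 and 0.60. DMD, dystrophin, with a span of 2241932 bases and a mean of 257, had log2 changes of 0.18 and 0.10, with 95% intervals from -0.04 to 0.40 and from -0.12 to 0.32. DLG2, MACROD2, CSMD1, PTPRD, LRP1B, ROBO2 and NRXN3 were not called with either compound. EYS, the seventh in length, was the 1 gene of the 10 longest that was called.

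Of the 10 long genes with the most reads, PALM2AKAP2, RUNX1 and PRKCA were called with both compounds, as given above. PDE1C, a phosphodiesterase for cyclic AMP and cyclic GMP, led with a mean of 4758 and had log2 changes of -0.05 and -0.02. SPOCK1, a secreted proteoglycan (mean 4419), had 0.02 and -0.02, with 95% intervals from -0.07 to 0.11 and from -0.11 to 0.07. ROBO1, the receptor of SLIT proteins (span 1170759, mean 3352), had 0.08 and 0.04. SOX5, a SOX transcription factor (mean 4568), stood at -0.15 with R4VPL3-1 with a limma adjusted p of 0.0511, and was called without R4VPL3-1 replicate 3 (0.00251). FAF1, ERC1 and DOCK1 were not called and had changes between 0.0045 and 0.06.

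No long gene was called between R4VPL3-1 and VHL-r by limma, where 1.87% of all tested genes (1.14% higher and 0.729% lower) and 2.00% of the other protein-coding genes were. At an unadjusted limma p under 0.05 there were 14, or 6.11%, against 9.90% of all tested genes. edgeR and DESeq2 on the recovered whole reads called none either, with 15 and 5 at an unadjusted p under 0.05. The smallest limma adjusted p was 0.114, for FRMD4A. The log2 differences ran from -0.67 for FHIT to 0.88 for GRID1 among genes with few reads, and the median was -0.02. Without VHL-r replicate 1, limma called 2 long genes higher, FAT3 and VPS13B. For the 38 genes called with either compound the difference between the compounds lay between -0.36 (NAV3) and 0.27 (RORA), and for 33 of them its 95% interval lay within 0.5 of 0.

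Genes of the elongation machinery itself, a list of 70 of which 67 were tested, hold none of the 229. With VHL-r 13 were higher and 7 lower, 29.9% against 19.8% of all tested genes, and with R4VPL3-1 14 and 7, 31.3% against 24.9%. Higher calls were 19.4% and 20.9% of the list, beside 10.3% and 13.1% of all tested genes. Lower calls were 10.4% with each compound, near the 9.51% and 11.8% of all tested genes. These differences were not tested. The median of their mean read counts was 3040, and their median log2 changes were -0.0022 and -0.0068. PCF11, a termination factor, rose by 1.14 and 1.06 on the log2 scale, HEXIM1, an inhibitor of P-TEFb, by 0.91 and 0.95, and POLR2A, the largest subunit of the polymerase, by 0.75 and 0.82 (limma adjusted p between 1.27e-11 and 1.12e-08). CDK9, the kinase of P-TEFb, fell by 0.30 and 0.38, while its cyclin partner CCNT1 rose by 0.26 and 0.13. CCNT2, another such cyclin, rose by 0.44 with R4VPL3-1 and had 0.21 with VHL-r (limma adjusted p = 0.064). The CCNT1 call with R4VPL3-1 was lost without R4VPL3-1 replicate 2 (limma adjusted p = 0.119). The elongation factors AFF4 and AFF1 rose by 0.24 and 0.41 with VHL-r and 0.26 and 0.28 with R4VPL3-1. ELL fell by 0.23 and 0.29 (limma adjusted p = 0.162 with VHL-r without DMSO replicate 1). INTS6 of the Integrator complex fell by 0.28 and 0.35 and the termination regulator SCAF8 by 0.41 and 0.43. HEXIM2, the relative of HEXIM1, fell by 0.39 with VHL-r (limma adjusted p = 0.026, and 0.137 without VHL-r replicate 1) and had -0.20 with R4VPL3-1 (0.264). In the PAF1 complex CTR9 rose by 0.38 and 0.28, while PAF1, LEO1, CDC73, RTF1 and SKIC8 were not called and lay between -0.07 and 0.03. INTS1 and INTS11 of the Integrator complex were not called either. Between the compounds ELOA, elongin A, was called lower with R4VPL3-1 (-0.16, limma adjusted p = 0.0488), a call that was lost when any of 8 of the 9 libraries was left out, with a limma adjusted p of up to 0.237 without R4VPL3-1 replicate 1.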

How the data were processed

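RNA from 9 A375R cultures (DMSO, 10 µM VHL-r and 10 µM R4VPL3-1 for 2 h, 3 each) was prepared as poly(A), strand-specific libraries and read as 100-base single reads. Per the study's methods, the authors aligned reads to GRCh38 with STAR, assigned them to genes on the reverse strand with htseq-count, and deposited a normalized signal, that is counts divided by DESeq2 (1.36.0, as in the submitters' processing notes) size factors and rounded to 2 decimals. By default htseq-count drops reads on exons of more than 1 gene of the same strand. Whole reads were recovered by dividing by the value of 1 read (tolerance 0.1), and 100% of values came out whole. 

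Because values were normalized, limma 3.58.1 (R 4.3.3) with trend was fitted to log2(value + 1) of 15230 genes (mean 10 or higher), with all 9 libraries in a single-factor model, in place of the DESeq2 test of the methods. Fold changes are on that scale and understate those of genes with few reads. The SE given after ± is the moderated standard error of limma, with the spread estimated over all 9 libraries. There n is the number of libraries per treatment. A call required an adjusted p (Benjamini-Hochberg) no larger than 0.05. The fit was tested on simulated data. With 3 libraries against 3 an exact permutation test cannot go below p = 0.1, so none is given for single genes. Transcript structure came from GENCODE 44 by gene ID (229 of 229 matched, 224 at the same position) and promoters from RefSeq. The long genes and the gene lists were chosen with earlier results of these data known. Named were the 10 largest rises and falls among called long genes with separate groups, the 10 longest, the 10 with the most reads, genes at the span limit, the called genes of each list and examples of the elongation list, and FGF13, TRPM3, FHIT, GRID1 and the promoters shown were added after their values were seen.

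The alternatives changed the pseudocount (0.1 or 5), the filter (none, or a mean of 50) and the scaling (TMM, upper quartile), or used the robust option, a replicate block, each pair of groups alone, leaving out each library, edgeR 4.0.16 and DESeq2 1.42.0 on recovered reads, an adjusted p of at most 0.01, and spans of 300000 and 1000000 bases.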

Additional observations from a re-analysis of the deposited data

How the results depend on the processing

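No called value of a gene changed sign under the alternatives. Of 6479 values of single genes under them, 227 lost their call, 32 gained one and 6220 kept their side of the threshold. Of all these values 139, in 74 comparisons of a gene, had the opposite sign, and 0 of those were called in the full fit. The median for R4VPL3-1 against DMSO (-0.0027) turned to 0.0064 with TMM scaling, 0.0144 with the upper quartile, 0.0085 with edgeR and 0.0077 at a span of 300000 bases, and with libraries left out it ran from -0.0227 to 0.0247. That between the compounds ran from -0.0451 to 0.0002. Leaving out 1 library gave 4 to 10 long genes called higher with VHL-r (8 in the full fit), 5 to 14 called higher (14) and 14 to 23 called lower (22) with R4VPL3-1, 0 to 2 called higher and 0 to 1 lower between the compounds, a median for VHL-r of -0.0036 to 0.0581, and 0 to 1 called elongation genes between the compounds. The lowest counts against DMSO came without DMSO replicate 2. At an adjusted p of at most 0.01, limma called 3 higher with VHL-r, and 7 higher and 13 lower with R4VPL3-1. At a span of 300000 bases there were 25 higher and 39 lower with VHL-r and 45 and 52 with R4VPL3-1, and at 1000000 bases 2 and 3, and 2 and 7, as the number of genes changed to 596 and 52. The elongation gene called between the compounds was lost (0) with no filter, upper quartile scaling, the 6 libraries alone, edgeR and an adjusted p of at most 0.01. 

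Replicate numbers shared by the groups gave correlations of deviations between -0.0056 and 0.121, so they were not taken as pairs. With the replicate block, 13 long genes were called higher and 19 lower with VHL-r, 14 and 25 with R4VPL3-1, and 0 and 1 (FRMD4A) between the compounds. For the block, the left-out libraries and the stricter adjusted p, the share of all tested genes called is not given. Those counts therefore do not set the long genes against the rest. Depth limits the long genes with a mean under 100, where the widest 95% interval reached 0.857 on either side of the log2 fold change. Rescaling moved the median of all genes by less than 0.1, to between -0.0008 and 0.0114.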

Other observations

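Among the 94 long protein-coding genes below the mean of 10, the median of the means was 2.15 and 24 were under 1. RBFOX1, a neuronal splicing factor with the longest span of all protein-coding rows (2473538 bases), was one of them, with 7.26, 3.94 and 6.08 in DMSO, 18.01, 8.4 and 10.24 with VHL-r and 10.27, 5.97 and 9.64 with R4VPL3-1. Of 71 protein-coding genes of at least 1 Mb, 19 fell below the mean. These genes were not tested.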
